A study of Mus musculus with 3 samples.

Results

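The 10 genes described here encode parts of the contractile apparatus of smooth muscle or, for Tagln2 and Cnn2, their relatives in non-muscle cells. Acta2, Tagln, Tagln2, Myl9, Cnn1, Cnn2, Tpm1, Tpm2, Cald1 and Palld were followed in mouse embryonic fibroblasts (MEFs) over 6 days of reprogramming and in cells transfected with siRNAs against regulators of chromatin and transcription. The 10 genes were taken as a list of names, out of 50507 rows in the count table, and all of them were counted and tested. The list was chosen by gene function with measured values of these data in view, the fitted fold changes of an earlier analysis. Myl9 and Palld against nt in the siWdr5, siBard1 and siBrca1 libraries, and Tagln at day 6 against day 0, were already known, so these 4 comparisons are described below without a test.

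The cells were wild-type MEFs of the BL6 strain, reprogrammed at passage 2. All of them had been given a lentivirus with Oct4, Sox2, Klf4 and c-Myc under a doxycycline-controlled promoter (tet-STEMCCA) and a second one with rtTA, the activator that doxycycline switches on, each added at an MOI of 1. The cells were transduced as a population and not as 1 clone. Induction was with 2 µg/mL doxycycline in a medium that also held 3 µM chiron, 0.25 µM Alk5i, an inhibitor of TGF-beta signalling, 50 µg/mL ascorbic acid and LIF, so that the factors and the medium cannot be told apart. The time course, Day00 to Day06, was of cells that were replated and not transfected. The other libraries came from cells transfected with 40 nM of pooled siRNA against 1 of 33 genes (siWdr5, siBard1 and so on), with non-targeting siRNA (nt), or under the name Mock, before induction, and harvested at day 6. The labels give only the replicate. The condition was read from the name of each library in the count table.

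Smooth muscle contracts when myosin pulls on actin filaments. Acta2 encodes the smooth muscle actin, Myl9 a regulatory light chain of myosin, Tpm1 and Tpm2 tropomyosins that lie along the filament, Cald1 and Cnn1 the filament-bound proteins caldesmon and calponin, Tagln and Tagln2 the related transgelins, and Palld the crosslinker palladin. Cultured fibroblasts on stiff plastic make the same proteins in their stress fibres, and Acta2 and Tagln are widely used as marks of the myofibroblast state. Many of these genes are known targets of serum response factor (SRF), which binds the CArG box with the actin-sensing cofactors of the MRTF family, and of TGF-beta signalling.

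The CArG box was searched on both strands in the 250 bases before each RefSeq start (GRCm38.p6). Windows were at hand for the genes other than Tagln (9 genes, 12 windows), and the match with 10 bases on either side is shown for each gene that had one, because it is a feature of sequence the choice of genes did not use. The box is in capitals and the gene is read in its own direction, 5′ to 3′:
Myl9, chr2:156775293-156775322 (+): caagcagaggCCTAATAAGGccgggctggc
Cnn2, chr10:79988534-79988563 (+): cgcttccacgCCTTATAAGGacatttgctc
Acta2, chr19:34255438-34255467 (-): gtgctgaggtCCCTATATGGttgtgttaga
Acta2, chr19:34255388-34255417 (-): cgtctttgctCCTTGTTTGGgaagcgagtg
Tpm1, chr9:67049415-67049444 (-): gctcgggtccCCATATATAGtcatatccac
Tpm1, chr9:67049274-67049303 (-): acaagcttttCCAAAAAAGTattggctgtc
Cald1, chr6:34598291-34598320 (+): acggtttcaaGCTTTTTAGGacttggtttt
Palld, chr8:61902735-61902764 (-): agttcagttaCCAAATATAGccgagtagag
The box was complete in Myl9, beginning 161 bases before the start, and in Cnn2, 56 bases before it. It had 1 mismatch at the other sites shown, and Myl9 held a further site of that kind 99 bases before its start. In all, 6 genes had a match with at most 1 mismatch. A complete box stood in 1.47% and a box with at most 1 mismatch in 18.6% of 32841 windows of the same length. MCAT (CATTCC on either strand), a motif of TEAD factors, stood in the windows of 5 of the genes and in 12.6% of all windows. These are matches of letters, not bound sites. No match with at most 1 mismatch was found for Tagln2 at chr1:172500047-172507380 (plus strand), Cnn1 at chr9:22099216-22109630 (plus strand) and Tpm2 at chr4:43514711-43523765 (minus strand). Tagln lies at chr9:45929619-45936058 (minus strand). These positions are from GENCODE vM21 on GRCm38.

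RNA was measured with CEL-Seq2, used here on bulk RNA, which counts transcript 3′ ends by unique molecular identifiers. Of 129 libraries 127 were used, in 3 sequenced pools, 1 per replicate: 21 of the time course, 3 of nt, 5 of Mock and 98 of siRNAs (3 per siRNA, 2 for siMtf1). They held 29656 to 235292 counts (median 73279), so a gene at a handful of counts was poorly resolved. Levels are given as CPM, counts scaled to a common library total, after TMM scaling, and n is 3 libraries per condition unless stated otherwise. Nothing in the labels says that the replicates were separate cell preparations, so p-values measure the spread between these libraries, which may be technical. Adjusted p-values are from the edgeR quasi-likelihood test of 3013 genes with Benjamini-Hochberg adjustment and a threshold of 0.05, and a gene is said to have risen or fallen where it passed. Tagln, Cnn1 and Tpm2 passed the low-count filter only through days 0 to 2, where they were highest, so counts are also given for the 7 genes that passed without those days. The 3′ ends of the 10 genes had no near-identical copy in the annotation. Only Tagln shared exon sequence with other genes, Gm48529 and Pcsk7, on the opposite strand.

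In the untransfected time course the summed level of the contractile genes went down from the first day on, and 4 of the 10 passed the test at day 1. The sum was 11413, 10651 and 13209 CPM at day 0 and 6075, 6426 and 5693 CPM at day 1. It went on to 3707, 2457 and 2965 CPM at day 3 and 1780.4, 1139 and 1207 CPM at day 6. The ranges of days 0, 1 and 2 did not overlap, nor did those of days 3 and 4, while days 2 and 3 and the days after day 4 overlapped with the day before. In the same pool the sum stood at 52.2% ± 8.66 (SD) of its day 0 level after 1 day, at 26% ± 5.62 after 3 days and at 11.8% ± 3.37 after 6. Acta2, Cald1 and Tpm1 gave 82.9% of the counts in the sum at day 0 and 62.8% at day 6, and the sum of the other 7 genes went from 2013 ± 351 to 527 ± 90.4 CPM (SD). In bulk RNA, fewer cells with contractile genes and less of their RNA in each cell cannot be told apart.

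**Figure D1:**
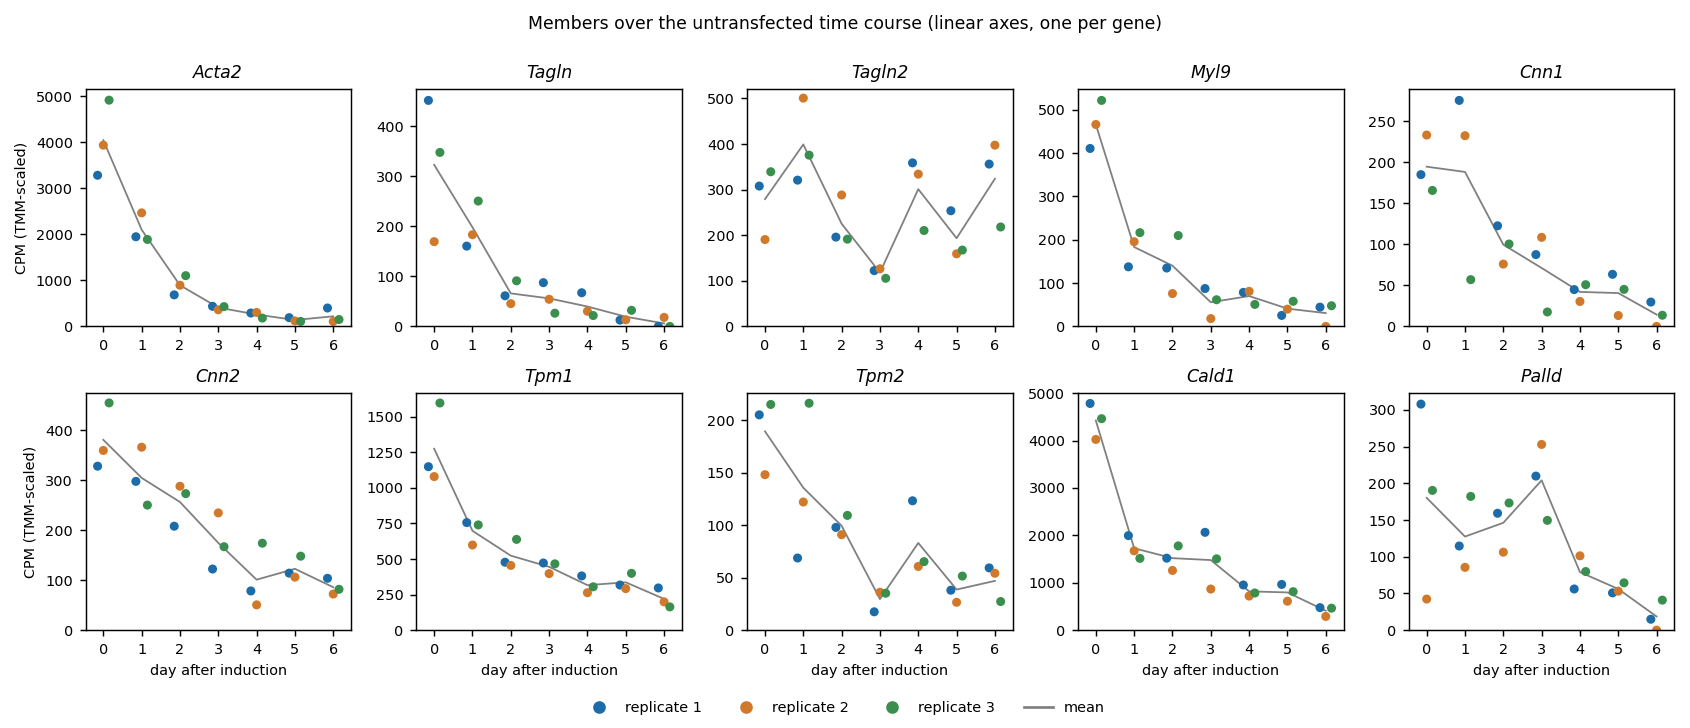
Level of each of the 10 genes (CPM, TMM-scaled, linear axis for each gene) against the day after induction in untransfected cells, with 1 point per library coloured by replicate and a line through the means. Acta2, Myl9 and Cald1 fell steeply by day 1, Palld stayed high until day 3, and Tagln2 went down at day 3 and up again at day 4.

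Acta2, the smooth muscle actin, fell the furthest of the 10 by day 5. Its libraries read 3284, 3938 and 4916 CPM at day 0, 1948, 2468 and 1890.2 at day 1 and 686, 895 and 1103 at day 2. They read 437, 361 and 431 CPM at day 3, 190.3, 119 and 109.5 at day 5 and 401, 108 and 150.0 at day 6. The libraries of days 0, 1, 2 and 3 formed 4 separate ranges, and replicate 1 of day 6 was the only one of that day above the highest library of day 5. Against day 0 the log2 fold change was -0.95 ± 0.18 (SE) at day 1 (adjusted p = 2.9e-05) and -4.92 ± 0.25 at day 5 (adjusted p = 8.21e-48). Acta2 also fell from day 1 to day 2, by 1.22 ± 0.20 on the log2 scale (adjusted p = 2.87e-06), and from day 2 to day 3, by 1.13 ± 0.25 (adjusted p = 0.0014). The last of these was lost without replicate 3 and without the replicate block.

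Cald1, caldesmon, fell in one large step and then in smaller ones. It stood at 4783, 4023 and 4461 CPM at day 0 and 1994, 1674 and 1514 CPM at day 1. It read 2063, 867 and 1504 CPM at day 3, 953, 719 and 784 at day 4, 964, 611 and 812 at day 5 and 475, 289 and 464 at day 6. Day 0 lay far above every later library, and the libraries of day 6 lay below all others. The log2 fold change at day 1 was -1.36 ± 0.16 (adjusted p = 1.62e-12). Between days 1 and 3 no step of Cald1 passed the test. It fell from day 3 to day 4 by 0.85 ± 0.18 (adjusted p = 0.00021, lost without replicate 1) and from day 5 to day 6 by 0.91 ± 0.21 (adjusted p = 0.00136, lost without the replicate block and with limma on the deposited log2 values).

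Tpm1, a tropomyosin, and Myl9, the myosin light chain, also fell by day 1. Tpm1 went from 1149, 1079.9 and 1597 CPM to 756, 599 and 740.1 CPM, without overlap, a log2 fold change of -0.91 ± 0.22 (adjusted p = 0.00112) that did not pass without replicate 3. By day 6 Tpm1 was at 18.2% ± 7.79 (SD) of its day 0 level, against 9.17% ± 1.73 for Cald1 and 6% ± 5.37 for Acta2. Myl9 went from 411, 466 and 521 CPM at day 0 to 138, 195 and 216 CPM at day 1 and 25.4, 39.8 and 58 CPM at day 5. Every day 0 library was above every later one. Its log2 fold change was -1.29 ± 0.40 at day 1 (adjusted p = 0.0196), a call that was lost when any 1 replicate was left out and without the low-count filter, and -3.39 ± 0.47 at day 5 (adjusted p = 3.19e-10).

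The remaining filament proteins were lower from later days on. The low-count filter kept Tagln, Cnn1 and Tpm2 through their high early levels, which favours a fall from day 0, so their changes from day 0 are described without a p. Tagln, transgelin, had 22, 8 and 42 counts at day 0, 5, 3 and 10 at day 2 and 0, 1 and 0 at day 6. Its log2 fold change at day 2 was -2.21 ± 0.52. Cnn1, the calponin of differentiated smooth muscle, read 185, 233 and 166 CPM at day 0, 275, 232 and 56.9 at day 1 and 44.9, 30.4 and 50.8 at day 4. Days 0 and 1 overlapped and day 4 lay below both, with a log2 fold change of -2.11 ± 0.56 against day 0. Cnn2, the calponin of non-muscle cells, went from 328, 360.0 and 455 CPM at day 0 to 208, 288 and 274 at day 2 and 78.5, 50.6 and 174 at day 4, a log2 fold change of -1.85 ± 0.36 (adjusted p = 1.33e-05). Tpm2 was at 205, 148 and 215 CPM at day 0 and 38.1, 26.5 and 51.5 CPM at day 5, without overlap, a log2 fold change of -2.19 ± 0.53.

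Palld and Tagln2 took a different course. Palld, palladin, read 308, 42.3 and 190.4 CPM at day 0, with replicate 2 far below the others, and 209.8, 253 and 149.5 CPM at day 3. The groups overlapped, and the log2 fold change was 0.12 ± 0.45 (adjusted p = 0.898). By day 5 Palld was at 50.7, 53.1 and 64.4 CPM. It passed there, with a log2 fold change of -1.62 ± 0.52 (adjusted p = 0.00942), and the call was lost without replicate 1, without replicate 3, without the low-count filter and with limma on the deposited log2 values.

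Tagln2, the transgelin of non-muscle cells, was at 308, 191 and 339 CPM at day 0 and 321, 501 and 376 CPM at day 1. It then read 122, 126 and 106 CPM at day 3, 359, 334 and 210.4 at day 4 and 356, 398 and 218 at day 6. Day 3 lay below every other day. Tagln2 was lower at day 3 than at day 0 by 1.35 ± 0.36 on the log2 scale (adjusted p = 0.00426, lost without replicate 3 and with limma). From day 3 to day 4 it rose by 1.30 ± 0.34 (adjusted p = 0.0042), and this call was kept whichever replicate was left out. Its day 6 level differed from day 0 by a log2 fold change of 0.01 ± 0.32.

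Against day 0, 4 of the 10 genes were lower at day 1, where 6.8% of all tested genes were, and 5 at day 2, against 6.44% of all genes. At day 3 there were 9 (5.81% of all genes), at day 4 there were 8 (10.4%) and at day 5 there were 9 (15%). None was higher on any of these days. Of these counts, 1 at day 2 and 3 on each of days 3, 4 and 5 were of Tagln, Cnn1 and Tpm2. Among the 7 genes that passed the filter without days 0 to 2, 4 were lower at day 1, 4 at day 2, 6 at day 3, 5 at day 4 and 6 at day 5. These comparisons share the day 0 libraries with the one that was known beforehand. At day 6, 9 of the 10 were called lower, where 11.5% of all genes were, a description only, since Tagln at day 6 was known when the list was made. With limma on the deposited log2 values none of the calls at day 1 was kept. The median log2 fold change of the 10 was -0.54 at day 1, -1.62 at day 3 and -2.16 at day 5, against -0.01, 0.01 and 0.03 for all genes.

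From day to day few of the genes passed. Acta2 and Tagln2 were lower at day 2 than at day 1 (1.39% of all genes), and the call of Tagln2 was lost when any 1 replicate was left out, without the replicate block, without the low-count filter and with DESeq2. Acta2 was lower at day 3 than at day 2 (1.36%). Cald1 was lower at day 4 than at day 3 (6.64%), while Tagln2 was the only one of the 10 that was higher (5.31%). None passed between days 4 and 5 by edgeR, where 2 of the 10 had an unadjusted p under 0.05 and 1.36% of all genes were lower. Cald1 was lower at day 6 than at day 5 (4.55%). None of these calls between successive days was kept with limma on the deposited log2 values.

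Other genes of the actin cytoskeleton fell as well. Of 43 such genes listed, 29 were tested, and 4 were lower at day 1, 16 at day 3 and 20 at day 5 (6.8%, 5.81% and 15% of all genes), with none higher on these days. Their median log2 fold change was -0.42 at day 1 and -1.05 at day 5. At day 1 the largest falls among them were of Actn1, the actin crosslinker alpha-actinin, with -1.15 ± 0.24 (adjusted p = 0.000145), the light chain Myl6 with -0.92 ± 0.20 and the focal adhesion gene Lpp with -0.69 ± 0.20. At day 5 they were of Vcl, vinculin of focal adhesions, with -2.75 ± 0.57, Actn1 with -2.33 ± 0.26 and Lasp1 with -2.09 ± 0.49. Vcl is given without a p because 45 of its 321 counts came from day 0.

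Of 22 listed regulators of SRF and TGF-beta signalling only Tgfb2, Smad4, Wwtr1 and Fhl2 were abundant enough to test. Fhl2, a LIM protein that binds SRF, read lower than at day 0 on each of days 1 to 5. Its log2 fold changes were -2.35 ± 0.64 at day 1 and -3.53 ± 0.67 at day 5. They are given without a p because 53 of its 259 counts came from day 0, which favours a fall from there. Tgfb2, a TGF-beta ligand, was higher at day 3, with 1.24 ± 0.39 (adjusted p = 0.0227). It was also called lower at day 4 than at day 3, lower in nt than at day 6 and higher in siWdr5 than in nt. Srf itself had 60 counts over all 127 libraries and Mkl1, which encodes an MRTF, had 33, too few to compare.

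Some of the genes that define mature smooth muscle were absent or scarce. Myocd, the muscle-specific SRF cofactor, had 2 counts over all libraries and none at day 0, and Pln had 4. Myh11, the smooth muscle myosin heavy chain, had 87 counts in all, 4 of them at day 0. Actg2, the enteric smooth muscle actin, had 142, of which 40 came from day 0, with a log2 fold change from day 0 of -2.64 ± 0.67 at day 2, given without a p because its counts are concentrated at day 0. At day 0 Lmod1 had 27 counts and Mylk had 20. The 12 defining genes, leaving out Cnn1, summed to 487 CPM (431 to 551) at day 0 and 46.5 CPM (40.9 to 54.2) at day 6. The name smooth muscle is used here for the list of 10 genes and not for a cell type. The summed level of 16 fibroblast markers went from 8787 CPM (7533 to 9592) at day 0 to 4497 CPM (4172 to 4948) at day 1 and 3619.8 CPM (3271 to 4214) at day 6. Of the 13 that were tested 7 were lower at day 1 (6.8% of all genes), where none was higher. At day 5 10 were lower (15%) and 2, Dcn and Lum, higher (16.8%). The 12 epithelial markers, none of which could be tested, went from 43.1 CPM (24.8 to 63.5) at day 0, with Epcam and Cdh1 at 0 counts, to 212 CPM (119 to 271) at day 6. Their part in the levels of the contractile genes over the time course was not tested.

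Transfected nt cells were lower still than untransfected cells of day 6. The sum of the 10 genes was 916, 882 and 759.8 CPM in nt and 1780.4, 1139 and 1207 CPM at day 6, without overlap. Acta2 read 83.3, 59.8 and 57.2 CPM in nt, against 401, 108 and 150.0 CPM at day 6, a log2 fold change of -1.67 ± 0.44 (adjusted p = 0.00223). Tagln2 and Cnn2 were lower too, by 0.89 ± 0.32 (adjusted p = 0.0284) and 1.75 ± 0.65 (adjusted p = 0.0327). These 3 of 10 stood beside 11% of all genes that were lower. The count fell to 0 without replicate 1, to 1 without replicate 2 to 1 without the replicate block, to 1 without the low-count filter and to 0 with limma on the deposited log2 values. Of the 29 other actin genes tested 7 were lower in nt (11% of all genes) and 1 higher (15.6%), and of the 13 fibroblast markers 3 were lower and 1 higher. The 12 pluripotency markers summed to 97.0 CPM (81.8 to 119) at day 6 and 169 CPM (135 to 233) in nt. Transfection and the culture steps that go with it cannot be told apart here.

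No difference between Mock and nt passed the test in these genes. The sum ran from 719.9 to 1135 CPM in Mock (median 996, n = 5) and overlapped that of nt. None of the 10 passed between Mock and nt by edgeR, and none by DESeq2 or limma. In the edgeR test Palld alone had an unadjusted p under 0.05 (edgeR adjusted p = 0.426), and 1.56% of all genes passed. Some of the genes had almost no counts in nt. Myl9 and Cnn1 each had 0, 0 and 1 counts, Palld had 0, 1 and 1 and Tagln had 0, 1 and 0. Every siRNA was set against these same 3 libraries, so a low nt value raises all folds of these genes, and for some of them the ratio of counts is given with its counting interval.

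The targeted transcript was looked at for 6 of the siRNAs and was too scarce to check their labels. Wdr5 had 7 counts in siWdr5 and 9 in nt, Cdk1 had 4 and 5, and Bard1 had 0 and 2. Brca1 had 4 counts in siBrca1 and 2 in nt, so its transcript was not lower in these libraries. Ep300, which encodes the acetyltransferase p300, had 4, 4 and 9 counts in the libraries labelled siEp300 and 0, 3 and 0 in nt, so its transcript was not lower there, and the direction of the results under that label rests on the label alone. Pou5f1 had 0 counts in siPou5f1 and 4 in nt.

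**Figure D2:**
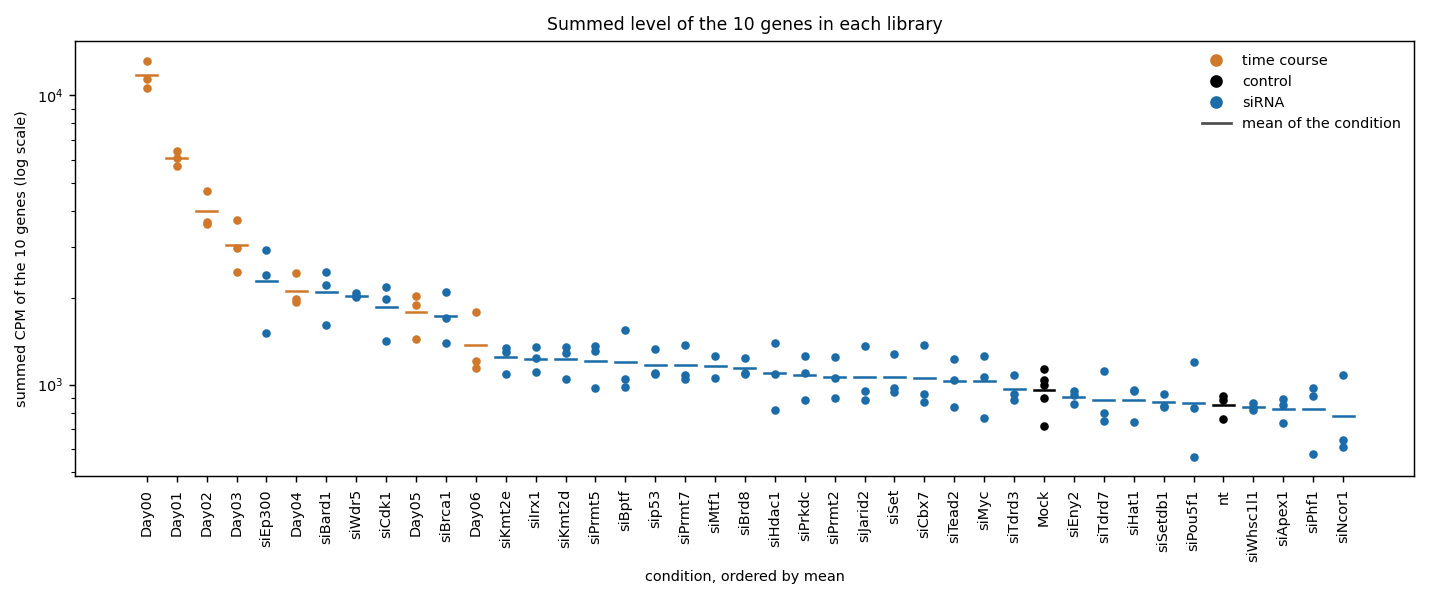
Summed level of the 10 genes (CPM, log axis) in each library, for the conditions ordered by their mean (bars, 1 siRNA left out), with the time course, the controls and the siRNAs in different colours. The libraries of siEp300, siBard1, siWdr5, siCdk1 and siBrca1 lie above every nt and Mock library.

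Contractile genes were higher than in both controls with 5 siRNAs. The summed level was 2931, 1504 and 2389 CPM in the libraries labelled siEp300, 2459, 1611 and 2208 in siBard1 and 2021, 2004 and 2069 in siWdr5. It was 2174, 1417 and 1970.1 CPM in siCdk1 and 2087, 1390.5 and 1696 CPM in siBrca1. Every one of these libraries lay above all 3 nt and all 5 Mock libraries, and in the order of means they stood between day 3 and day 6 of the time course, with overlapping ranges. The siRNAs whose libraries all lay above nt numbered 15 of 33, and those whose mean did numbered 29. Without Acta2, Cald1 and Tpm1, the sum of the other 7 genes was 782 ± 285 CPM (SD) under the label siEp300. It was 754 ± 130.4 CPM in siWdr5 and 239 ± 19.7 CPM in nt. Both this sum and the summed level include Myl9 and Palld, whose values against nt in siWdr5, siBard1 and siBrca1 were known beforehand. Myl9 and Palld had means of 69.8 and 79.3 CPM in siWdr5 and 115 and 90.2 CPM under the label siEp300. In nt their means were 2.72 and 7.71 CPM. The sums and their order are therefore a description and not a test.

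In siWdr5, siBard1 and siBrca1, which target a subunit of histone H3K4 methyltransferase complexes and the partners of a ubiquitin ligase of DNA repair, Acta2 was above both controls in every library. It read 264, 355 and 285 CPM in siWdr5, 575, 291 and 389 in siBard1 and 227, 205 and 365 in siBrca1, all of them above the highest nt library (83.3 CPM) and the highest Mock library (144 CPM). The log2 fold changes against nt were 2.19 ± 0.41, 2.65 ± 0.39 and 2.11 ± 0.44. Myl9 had 4, 7 and 6 counts in siWdr5, 6, 2 and 31 in siBard1 and 3, 1 and 11 in siBrca1 against 0, 0 and 1 in nt. Replicate 2 of siBrca1, at 22.8 CPM, was inside the Mock range of Myl9, which reached 29.9 CPM. Palld had 4, 5 and 12 counts in siWdr5, 11, 10 and 14 in siBard1 and 1, 2 and 11 in siBrca1. The level of Palld was inside the Mock range of 0 to 103.2 CPM in replicates 1 and 2 of siWdr5 and of siBrca1 and in replicate 3 of siBard1. For Myl9 the ratio to nt was 17.7 (2.77 to 739, 95% counting interval) in siWdr5 and 39 (6.6 to 1579, 95% counting interval) in siBard1. These intervals are wide because nt had a single Myl9 count. They cover counting error only and are not tests, since these values were known when the list was made.

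Cnn2 was at 106, 213 and 228 CPM in siWdr5 and 208, 119.9 and 159.7 CPM in siBard1, against 33.3, 29.9 and 16.3 CPM in nt, with no overlap. Mock reached 103.0 and 134 CPM in 2 of its libraries, so that replicate 1 of siWdr5 and replicate 2 of siBard1 were inside the Mock range. Cald1 stood at 792, 526 and 579 CPM in siWdr5, where every library was above the nt range of 294 to 344 CPM, and at 751, 326 and 541 CPM in siBard1, where replicate 2 was inside it. Tpm1 had log2 fold changes of 0.70 ± 0.30 in siWdr5 and 0.33 ± 0.31 in siBard1, and Tagln2 of 0.62 ± 0.33 and 0.66 ± 0.33. By the threshold used elsewhere 6 of the 10 were called higher in siWdr5 (12.2% of all genes), 7 in siBard1 (5.54%) and 3 in siBrca1 (2.49%). Myl9 and Palld, known beforehand, are among the genes behind these counts, which are given as a description and are not read against the share of all genes. Of the 7 genes that passed the filter without days 0 to 2, 5, 5 and 3 were called. Without replicate 3 the 16 calls went down to 6.

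**Figure D3:**
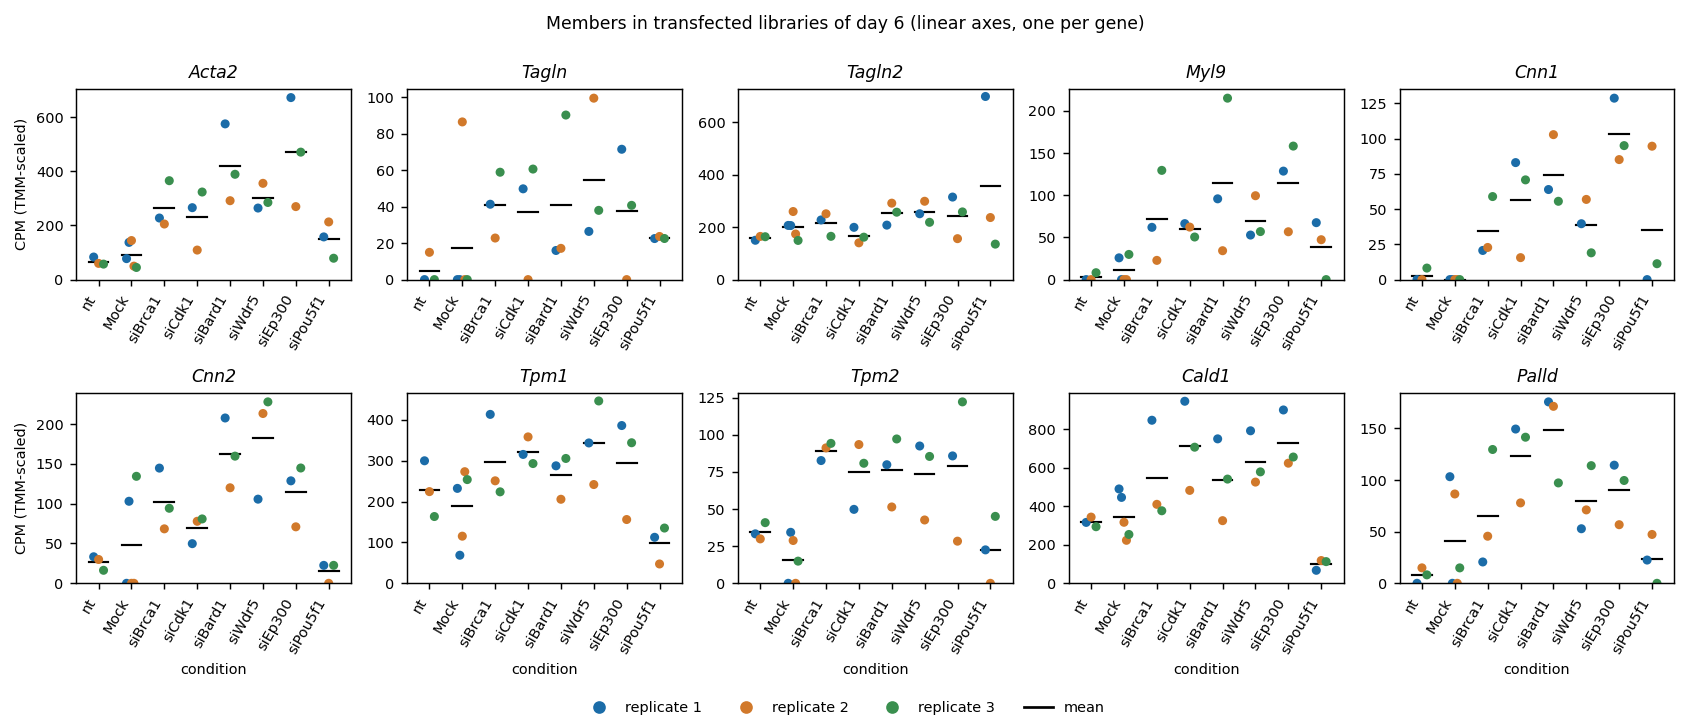
Level of each of the 10 genes (CPM, linear axis for each gene) in nt, Mock and 6 siRNA conditions at day 6, with 1 point per library coloured by replicate and a bar at the mean. Acta2, Myl9, Palld and Cnn1 are higher than nt in all libraries labelled siEp300, while Cald1 is below nt in siPou5f1.

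No difference between siWdr5, siBard1 and siBrca1 was detected in these genes. Of the 30 tests of 10 genes in the 3 pairs none passed by edgeR and none had an unadjusted p under 0.05, and the lowest adjusted p was 0.253. For Acta2 the log2 fold change was -0.47 ± 0.29 between siWdr5 and siBard1 and 0.55 ± 0.31 between siBard1 and siBrca1. Over all genes 8.36% differed between siWdr5 and siBard1, 9.99% between siWdr5 and siBrca1 and 0.863% between siBard1 and siBrca1. The standard errors are wide, so equal levels are not shown.

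Among the other 30 siRNAs, 3 had any call in the 10 genes, and 10 of 300 tests were higher and 1 lower. Over all genes and these siRNAs 0.749% of tests were higher and 0.687% lower. Of the 10, 4 were of Myl9 and Palld, whose low nt values were known when the list was made, so the count is not read against the share of all genes, and these genes are given below without a p. The most calls came under the label siEp300, with 6 genes higher (3.02% of all genes), 5 of them among the 7 that passed the filter without days 0 to 2. Without Myl9 and Palld the count was 4, of Acta2, Cald1, Cnn1 and Cnn2. Acta2 read 672, 269.5 and 471 CPM there, against 83.3, 59.8 and 57.2 CPM in nt, without overlap, and its log2 fold change was 2.84 ± 0.37 (adjusted p = 4.91e-10). Cald1 read 901, 624 and 656 CPM, against 316, 344 and 294 CPM, also without overlap, and its log2 fold change was 1.17 ± 0.23 (adjusted p = 8.52e-05). Myl9 had 9, 4 and 35 counts, a ratio to nt of 36 (6.16 to 1451, 95% counting interval). Cnn1 had 9, 6 and 21 counts, a ratio of 27 (4.54 to 1095, 95% counting interval) (adjusted p = 0.00107), and no count in any of the 5 Mock libraries. Cnn2 also passed (adjusted p = 0.00636), and Palld had 8, 4 and 22 counts. The calls of both were lost without replicate 3 and with Mock alone as the control, and that of Palld also without replicate 1. With limma on the deposited log2 values the calls of Acta2, Cald1, Palld and Cnn2 under this label were lost, and those of Myl9 and Cnn1 were kept. Of the remaining genes, Tpm1 had a log2 fold change of 0.48 ± 0.29 (adjusted p = 0.336) and Tagln2 of 0.64 ± 0.32 (adjusted p = 0.233).

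siCdk1, against the kinase of mitotic entry, had 4 genes higher (1.53% of all genes), of which Myl9 and Palld rest on the same nt values. Acta2 read 266, 109 and 323 CPM, all above nt, with replicate 2 inside the Mock range, and its log2 fold change was 1.89 ± 0.44 (adjusted p = 0.00249). Cald1 read 946, 483 and 707 CPM, with replicate 2 inside the Mock range of 223 to 490 CPM. Its log2 fold change was 1.15 ± 0.24 (adjusted p = 0.000551). Palld had 9, 5 and 14 counts, a ratio to nt of 16 (4.03 to 138, 95% counting interval). Without replicate 3 the calls of Acta2, Cald1 and Palld were lost, and that of Cald1 also without replicate 1. Myl9 had 4, 4 and 5 counts, and its call was lost when any 1 replicate was left out. With Mock alone as the control Myl9 and Palld were lost, and the call of Myl9 was lost in 8 of 10 alternatives. None of the 4 was kept with limma.

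siPou5f1, against the reprogramming factor Oct4, was the only one of the 30 in which 1 of the genes was lower. Cald1 read 67.5, 118 and 113 CPM, far below the 316, 344 and 294 CPM of nt and every Mock library, a log2 fold change of -1.61 ± 0.37 (adjusted p = 0.00106, 2.19% of all genes lower), kept whichever replicate was left out and lost with limma on the deposited log2 values. Acta2 went the other way without passing, at 158, 213 and 78.9 CPM (1.03 ± 0.53, adjusted p = 0.292). Tagln2 read 698, 237 and 135 CPM, highest in replicate 1, with replicates 1 and 2 above every nt library (0.94 ± 0.34, adjusted p = 0.086), and it passed when replicate 3 was left out.

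**Figure D4:**
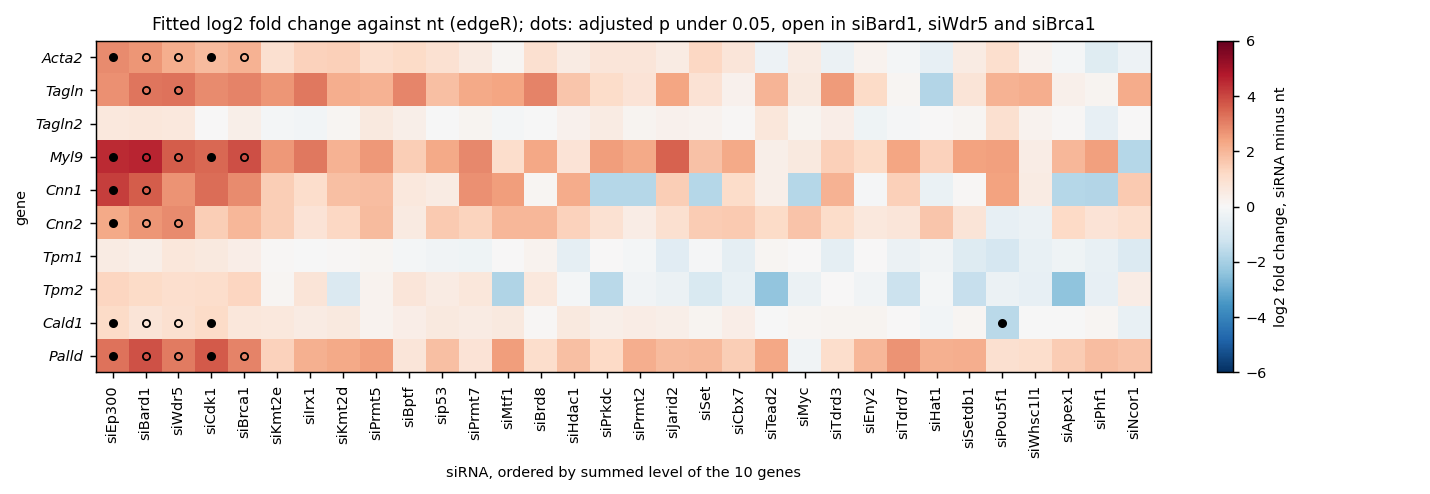
Fitted log2 fold change of each of the 10 genes (rows) against nt for the siRNAs (columns, 1 of the 33 left out), ordered by the summed level of the 10 genes, with dots where the adjusted p was under 0.05, open for siBard1, siWdr5 and siBrca1, which are described without a test. Dots stand in 5 columns at the left, where those of Myl9 and Palld rest on nt values known beforehand, and at Cald1 in siPou5f1.

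The other 27 siRNAs had no call in the 10 genes by edgeR, with 49 of 270 tests at an unadjusted p under 0.05, and none by DESeq2. Against nt and Mock libraries combined, Acta2 was called in siKmt2d. With limma on the deposited log2 values Myl9 was called higher in siJarid2. The median over the 10 genes was above 0 in 28 of the 30 siRNAs, all against the same nt libraries, in which Myl9, Cnn1, Palld and Tagln had 1 or 2 counts each in all.

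Other actin genes also differed from nt in some of the siRNA conditions. Of the 29 tested, 5 were higher under the label siEp300 (3.02% of all genes) and 5 in siCdk1 (1.53%). Under the label siEp300 the largest changes were of Lpp with 1.41 ± 0.24 (adjusted p = 3.31e-06), Actb with 1.01 ± 0.18 and Cfl1, cofilin, which severs filaments, with 0.98 ± 0.20. In siCdk1 they were of Flna, the crosslinker filamin, with 1.65 ± 0.41 (adjusted p = 0.00728), Arpc1b of the Arp2/3 complex with 1.30 ± 0.34 and Lpp with 1.25 ± 0.25. In siPou5f1 3 were lower, Arpc5, Rock2 and Actb (2.19% of all genes), and in siNcor1, which had no call in the 10 genes, Lpp was lower (1.03%). In siWdr5 11 were higher (12.2%) and 1, the monomer-binding Tmsb4x, lower (15.1%), with 9 higher in siBard1 (5.54%) and 5 in siBrca1 (2.49%). The median over the list was 0.90 under the label siEp300 and 0.89 in siWdr5, against -0.02 and 0.00 for all genes.

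Fibroblast markers summed to 2807 CPM (2426 to 3347) in nt and to 6670.0 CPM (6299.9 to 7157) in siWdr5, 4203 CPM (3291 to 5075) under the label siEp300 and 1516 CPM (1453 to 1608) in siPou5f1. They summed to 4351 CPM (3821 to 5046) in siBard1, 3934 CPM (3305 to 4505) in siBrca1 and 3902 CPM (3286 to 4466) in siCdk1. Of 13 tested, 4 were higher (3.02% of all genes) and 1 lower (2.66%) under the label siEp300, 3 were higher in siCdk1 (1.53%), and 3 were lower in siPou5f1 (2.19%). In siWdr5 8 were higher (12.2%), in siBard1 5 (5.54%) and in siBrca1 2 (2.49%), with 1 lower in siBrca1 (1.73%). Calls of these markers were also made in siRNAs with no call in the 10 genes, among them sip53, with 3 higher (0.863%) and a sum of 4594 CPM (4106 to 5481). A single marker was higher in siEny2 (0.763%), siIrx1 (0.431%) and siPrmt5 (0.398%), and 1, Dcn, was lower in siBptf (1.1%). Epithelial markers summed to 139 CPM (119.6 to 149.9) in nt, 74.5 CPM (52.8 to 114) in siWdr5 and 157 CPM (143 to 184) under the label siEp300, and to 50.6 CPM (0 to 83.3) in siBard1, 80.2 CPM (20.7 to 114) in siBrca1 and 77.8 CPM (40.4 to 99.6) in siCdk1. Pluripotency markers summed to 169 CPM (135 to 233) in nt, 49.6 CPM (38 to 71.1) in siWdr5 and 87.7 CPM (49.8 to 128) under the label siEp300. They summed to 124 CPM (79.8 to 154) in siBard1, 108 CPM (82.7 to 137) in siBrca1 and 184 CPM (121 to 280.3) in siCdk1, all with ranges that overlapped that of nt. Their part in the levels of the contractile genes was not tested. The defining smooth muscle genes other than Cnn1 summed to 9.97 CPM (0 to 29.9) in nt, 146 CPM (140.3 to 156) under the label siEp300 and 152 CPM (92.5 to 242) in siWdr5, and to 116 CPM (95.8 to 132) in siBard1, 101 CPM (68.4 to 153) in siBrca1 and 115 CPM (93.4 to 149) in siCdk1. In siWdr5 the sum held 37 counts, of which Lmod1 and Mylk gave 9 each. Actg2 had no count in nt and was called higher under the label siEp300 (adjusted p = 0.0365). Myocd was at 0 counts in both nt and siWdr5.

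Levels of the 10 genes were positively correlated over the 42 conditions, to different degrees. Pearson's r between the condition means ranged from 0.215 to 0.885 over the 45 pairs (median 0.627) and was positive in all of them. Over the 35 transfected conditions alone the median was 0.364, with 43 of 45 pairs positive. There Tagln2 had r = -0.02 with Tpm2 and -0.09 with Cald1. The conditions share pools and, through their low counts, sampling noise, so these values are a description. Pairs of other genes were not compared. Of 2817 genes compared, those outside the list with a pattern most like the summed level were the cytoplasmic actins Actb (r = 0.927) and Actg1 (0.922), followed by Phldb2 (0.885), which anchors microtubules near adhesions, the matrix protein genes Thbs1 (0.880) and Sparc (0.863), Basp1 (0.862), Ckap4 (0.855) and Anxa5 (0.849). In the same ranking Palld (r = 0.683) stood at place 111 and Tagln2 (0.476) at place 522, although both are part of the sum. Over the transfected conditions Actg1 had r = 0.825 and Thbs1 0.825, while Basp1 had 0.499 and Anxa5 0.454. Actg1 also had a complete CArG box, 90 bases before its start, shown with the same flanks and capitals as above:
Actg1, chr11:120348566-120348595 (-): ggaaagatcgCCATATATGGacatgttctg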

How the data were processed

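CEL-Seq2 libraries of transfected and untransfected MEFs were read from a table of deposited counts, which the authors made by mapping to mm10 with Bowtie2, correcting UMIs in the CEL-Seq2 pipeline and assigning reads to GENCODE vM13. These counts are not normalized. A table of log2 CPM values, which the authors normalized by size factors and corrected for the batch by regression, was deposited beside it, and the libraries it holds passed the filter on quality that the authors applied. Libraries were assigned to conditions by column name. Values of 1 siRNA are not reported here singly, though it is in the fits and the totals. Replicate 3 has 1 Mock column in the log2 table, which was paired with whichever of the Mock count columns correlated best with it. Of 129 libraries, the other 2 held 7981 and 6403 counts and were left out.

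The main analysis used edgeR 4.0.16 (quasi-likelihood test, TMM, filterByExpr by condition) with condition and replicate in one model of 127 libraries, 3013 genes and 83 residual degrees of freedom. Replicate was kept as a block because deviations from the condition mean had a median correlation of 0.0981 within and -0.0685 between replicate numbers. The replicates marked sequenced pools. Benjamini-Hochberg adjustment was applied over all tested genes of a comparison, and each standard error is the log2 fold change divided by the root of its test statistic. The procedure was tested on simulated data. CPM use the tested genes' total after TMM as the library size. Some genes with 1 to 3 counts in a group are given a count ratio, with an exact 95% interval for counting error only. No 2 libraries of a condition agreed within sampling noise: chi-square per gene was 1.30 to 5.69 over 131 pairs.

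Alternatives were DESeq2 1.42.0, RLE scaling, no low-count filter (at least 10 counts in all), no replicate block, each replicate left out, limma 3.58.1 on the deposited log2 values, nt with Mock as the control and, added after the data were seen, Mock alone. The 10 genes and all lists were chosen with earlier results of these data known. All 10 were named, with up to 3 genes in each direction per comparison from the lists of actin genes and of regulators, by size among those that passed, and the 8 genes most correlated with the summed level among those with a mean of at least 50 CPM (log2 with a pseudocount of 2). Markers and other genes with counts were named to check the identity of the cells or the siRNA targets. Mock libraries of replicates 1 and 2 that have the same name were told apart by their place in the table. Positions of the genes and their exon overlaps were read from GENCODE vM21 on GRCm38, and sequences from RefSeq on GRCm38.p6.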

Additional observations from a re-analysis of the deposited data

Results flagged for a closer look

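One group of libraries held a value far from the others. Tagln had no counts in 4 of the 5 Mock libraries and 3 counts (86.5 CPM) in the first Mock library of replicate 2, so that the gap to the nearest of the others divided by the range of the group was 1. The limit used is passed by chance in about 1 in 20 groups of continuous values. With 4 libraries at 0 the quotient is 1 whenever the remaining one has any count, so that rate does not apply here. In all 10 groups were looked at, 9 of the genes and their sum. The value rests on 3 counts in a library of shallow depth.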

How the results depend on the processing

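No call among the 10 genes turned direction under any alternative that was run. Of 462 values recomputed for the 55 calls outside the comparisons given as a description, 365 kept direction and threshold and 97 kept direction but no longer passed. In all 21 calls passed under every alternative. The 55 include the calls of Tagln, Cnn1 and Tpm2 against day 0 and those of Myl9 and Palld against nt, which are given without a p above. With limma on the deposited log2 values the calls went from 35 to 23 for days 1 to 5 against day 0, from 10 to 0 for successive days, from 3 to 0 for nt against day 6, from 16 to 7 for siWdr5, siBard1 and siBrca1 against nt, and from 11 to 4 for the other 30 siRNAs, of which 2 were among the 11. Without the low-count filter 1 of the 10 was called for nt against day 6. Leaving out 1 replicate gave 26 to 30, 6 to 8, 0 to 2, 6 to 12 and 6 to 10 calls in these 5 families, with 8 or 9 for day 6 against day 0. Without the replicate block, which pairs libraries of 1 pool, there were 32, 7, 1, 13 and 10 calls, and 1 in place of 3 for nt against day 6. With nt and Mock as the control there were 20 calls for siWdr5, siBard1 and siBrca1 and 14 for the other 30 (15 and 11 of them shared), and with Mock alone, added after the data were seen, 15 and 9 (11 and 7 shared). The cause of these differences was not tested. The summed level of siWdr5 over nt was 2.38, 2.70 with RLE scaling, 2.21 against nt and Mock and 2.24 to 2.48 with a replicate left out. That of day 6 over day 0 was 0.117, 0.103 with RLE and 0.0983 to 0.132 with a replicate left out. Under RLE the log2 fold change of the median gene was 0.18 in siWdr5 and -0.18 at day 5, where it was near 0 under TMM. Depth limits Tagln, Cnn1, Tpm2, Myl9 and Palld most, since transfected libraries held few or no counts of them.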
